A study of Mus musculus with 49 samples.

Results

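Protocadherins are calcium-dependent cell adhesion proteins of the cadherin superfamily, and they were read here in the neocortex of rNLS8 mice, a model of TDP-43 proteinopathy. The members are the rows of the count table whose symbol starts with Pcdh and that hold at least 10 counts in 10 or more of the 49 mice. This rule kept 65 of 70 such rows, among 45252 rows in all, namely 10 of 14 Pcdha genes, 21 of 22 Pcdhb genes, all 22 Pcdhg genes and all 12 nonclustered genes. Just inside the rule were Pcdh12, with 10 or more counts in 11 mice, and Pcdha1, in 18 mice. Just outside was Pcdha8, which reached 10 counts in 1 mouse. Pcdha6 and Pcdhb1 never exceeded 4 and 7 counts, and Pcdha4 and Pcdha7 were at 0 in every mouse.

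Most protocadherin genes lie in 3 neighbouring clusters, and each mature neuron expresses a small, largely random set of them. In the Pcdha and Pcdhg clusters each gene has its own promoter and variable first exon, which is spliced to constant exons that all genes of the cluster share, whereas Pcdhb genes have a single exon. Promoter choice depends on CTCF, cohesin and DNA methylation, and the resulting combinations let a neuron tell its own branches from those of its neighbours. The last genes of the Pcdha and Pcdhg clusters, called C-type, are chosen less randomly than the others. Nonclustered protocadherins are separate genes scattered over the genome, and their delta1 and delta2 subgroups guide axons, synapses and cell sorting.

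All mice were of a mixed C57BL/6J × C3H/HeJ background and came from crossing NEFH-tTA with tetO-hTDP-43ΔNLS animals, so that bigenic rNLS8 mice make human TDP-43 that lacks the nuclear localization signal in cells that use the neurofilament heavy chain promoter, once doxycycline is removed. The ctrl PBS group held 17 monogenic mice with the tetO-hTDP-43ΔNLS allele alone, which have no driver for it (10 females, 7 males). The rNLS8 mice fell into TDP-PBS (n = 10, 4 females), TDP10 + 12, immunized with peptides 10 and 12 of TDP-43 (n = 10, 6 females), and TDP15, immunized with peptide 15 (n = 12, 5 females). Injections of 40 µg of peptide conjugate with CpG oligonucleotide and Alhydrogel began at 8 weeks of age. In the PBS groups, PBS took the place of the conjugate. Doxycycline was withdrawn in all mice at 25.5 weeks and the neocortex was taken at 28.5 weeks, 3 weeks later. Each mouse gave 1 library, and total counts per library lay between 17775738 and 21033608. A level of 3 counts, taken here as the detection limit, corresponds to 0.143 to 0.169 CPM, the reads of a gene scaled to a common library size. Lower counts were kept in the values.

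Mouse Tardbp, which is autoregulated by TDP-43 protein, measured 146 ± 9.27 CPM in ctrl PBS (SD, n = 17) and 118 ± 14.0 CPM in TDP-PBS (SD, n = 10), and the human transgene has no row of its own in the table. Reads were aligned to the mouse genome, and whether reads of the transgene entered the Tardbp row was not tested. Neuron markers were present throughout, and 6 of 9 were lower in TDP-PBS. Their summed level was 7593 CPM at the lowest in ctrl PBS and had a median of 8088, against a median of 6358 CPM in TDP-PBS, with Nefl at a log2 fold change of -0.99 and Snap25 at -0.68. The mean neuron sums of TDP10 + 12 and TDP15 were 6316 and 6294 CPM. Of 6 microglia markers 4 were higher in TDP-PBS, and of 6 astrocyte markers Gfap was higher and Slc1a2 and Gja1 were lower, while 0 of 5 oligodendrocyte and 0 of 3 precursor markers passed the test. In 5 mice the summed olfactory bulb markers exceeded 70 CPM, and in 4 mice, of which 0 were ctrl PBS, the summed choroid plexus markers exceeded 500 CPM. The part of any of these in the values below was not tested, and in bulk tissue fewer cells of a type and less RNA per cell cannot be told apart.

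**Figure D1:**
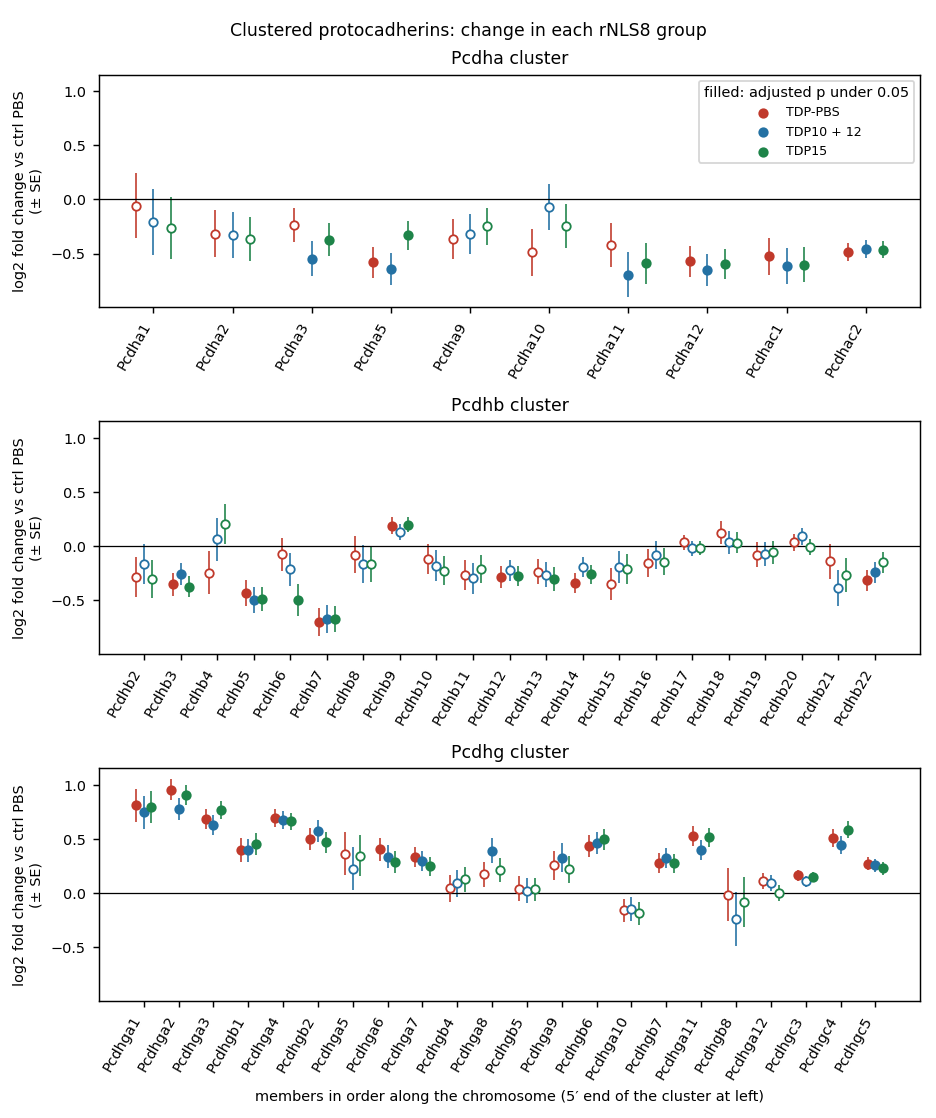
Log2 fold change (± SE) of each tested member of the 3 clusters in TDP-PBS (red), TDP10 + 12 (blue) and TDP15 (green) against ctrl PBS, in gene order along the chromosome. Filled points have an adjusted p-value under 0.05. Pcdha members lie below 0, most Pcdhb members lie at or below 0, and Pcdhg members lie mostly above 0, with Pcdhga1, Pcdhga2, Pcdhga3 and Pcdhga4 at 0.63 to 0.96 in all 3 groups.

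The first comparison asked how protocadherin expression differed between rNLS8 mice and monogenic controls. The clusters went in opposite directions. In TDP-PBS 15 of the 64 members tested were higher and 14 were lower than in ctrl PBS (edgeR's quasi-likelihood test, adjusted p-value under 0.05 over all genes), where 21.9% of all 18220 genes tested were higher and 21.6% lower. The counts differed by cluster: 14 of 22 Pcdhg genes were higher and 0 lower, 0 of 10 Pcdha genes were higher and 4 lower, and of 21 Pcdhb genes 1 was higher and 6 lower. Of the 11 nonclustered genes tested, 0 were higher and 4 lower. The median log2 fold change was 0.35 over Pcdhg, -0.46 over Pcdha, -0.24 over Pcdhb and -0.12 over the nonclustered genes, beside a median of -0.00039 over all genes tested.

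The same layout was seen in both immunized groups, which were compared with the same 17 ctrl PBS mice. In TDP10 + 12, 15 members were higher and 11 lower, against 20.8% and 20.0% of all genes, and the medians were 0.33 over Pcdhg, -0.50 over Pcdha, -0.19 over Pcdhb and -0.08 over the nonclustered genes. In TDP15, 15 members were higher and 17 lower, against 23.6% and 23.2% of all genes, with medians of 0.28, -0.37, -0.21 and -0.17 in the same order. The 3 comparisons share their control mice. A total of 13 of 64 members, all of them Pcdhg genes, were higher in all 3 rNLS8 groups, as were 16.7% of all genes, and 8 were lower in all 3, as were 16.1% of all genes, namely Pcdha5, Pcdha12, Pcdhac1, Pcdhac2, Pcdhb3, Pcdhb5, Pcdhb7 and Pcdh7. In none of the 3 comparisons did 28 of the 64 members pass the test, against 44.5% of all genes.

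**Figure D2:**
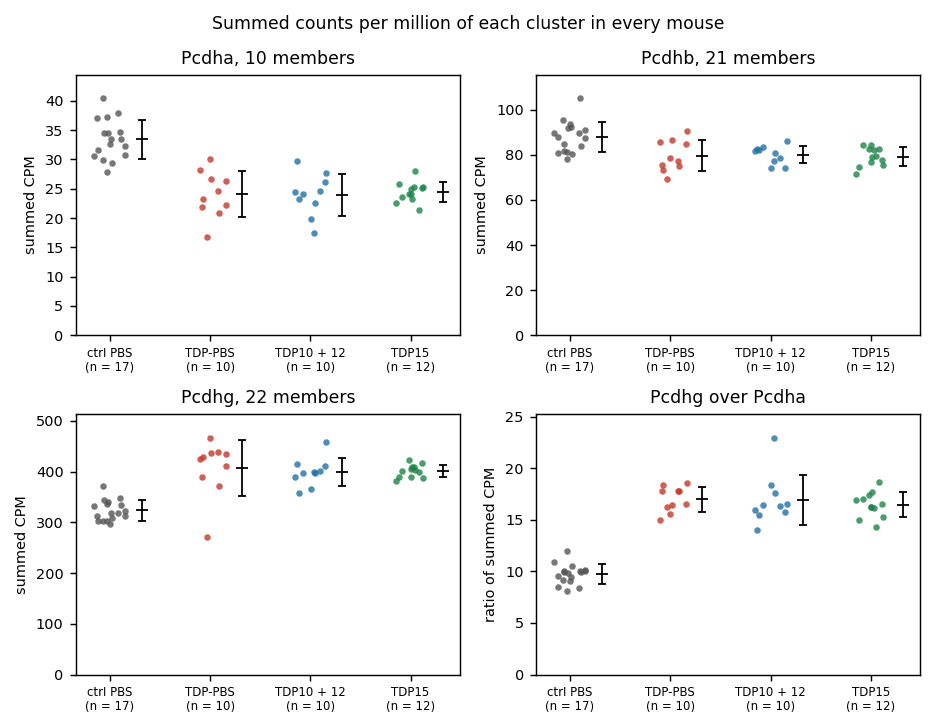
Summed CPM of the Pcdha, Pcdhb and Pcdhg members in each mouse and the ratio of summed Pcdhg to summed Pcdha CPM, by group. Points are mice and the bars at the right of each group show mean ± SD. All 32 rNLS8 mice have a higher ratio than every ctrl PBS mouse, and 1 TDP-PBS mouse has a summed Pcdhg level below the ctrl PBS range.

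Summed over its 22 members, the Pcdhg cluster gave 297 CPM in the lowest, 319 in the median and 372 in the highest ctrl PBS mouse. The sums were 271, 426 and 467 CPM in TDP-PBS, 358, 398 and 458 in TDP10 + 12, and 381, 402 and 422 in TDP15. The highest control was exceeded by all 12 mice of TDP15, 8 of 10 of TDP10 + 12 and 8 of 10 of TDP-PBS. The 10 Pcdha members summed to 33.4 ± 3.36 CPM in ctrl PBS (SD, n = 17), 24.1 ± 3.92 in TDP-PBS (SD, n = 10), 24.0 ± 3.58 in TDP10 + 12 (SD, n = 10) and 24.5 ± 1.73 in TDP15 (SD, n = 12). Here 8, 9 and 11 mice of the 3 rNLS8 groups were under the lowest control. The Pcdhb sum was less separated, at 87.9 ± 6.85 CPM in ctrl PBS (SD, n = 17) and 79.6 ± 6.87 in TDP-PBS (SD, n = 10), with 5 of 10 TDP-PBS mice below the lowest control.

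The ratio of summed Pcdhg to summed Pcdha counts, a measure chosen after the sums had been seen and therefore given without a test, was 8.12 in the lowest, 9.94 in the median and 12.0 in the highest ctrl PBS mouse. The lowest and highest values were 15.0 and 18.5 in TDP-PBS, 14.0 and 23.0 in TDP10 + 12, and 14.3 and 18.7 in TDP15. The groups of rNLS8 mice thus did not overlap with ctrl PBS in this ratio, although they did in each of the cluster sums but the Pcdhg sum of TDP15. The ratio of summed Pcdhg to summed Pcdhb counts reached 4.13 in the highest ctrl PBS mouse and 3.92 in the lowest TDP-PBS mouse. It exceeded every control in 9 of 10 TDP-PBS mice, all 10 of TDP10 + 12 and all 12 of TDP15. A single TDP-PBS mouse, number 26, had the lowest Pcdhg sum (271 CPM) and was the lowest of its group in 15 of 22 Pcdhg genes, 8 of 21 Pcdhb genes and 3 of 12 nonclustered genes. Its total of 18346385 counts was the lowest of TDP-PBS and its choroid plexus markers summed to 1271 CPM, beside a median of 40.8 CPM in its group. Without this mouse 16 members were higher and 13 lower in TDP-PBS, where 7926 of all 18326 genes tested were called.

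The Pcdhg cluster spans 180 kb of chromosome 18 (37661775 to 37841873, GRCm38), and its largest changes lay at the 5′ end. Pcdhga2, the second gene of the cluster, showed the largest increase of all members. It measured 4.62 CPM in the lowest, 7.87 in the median and 10.4 in the highest ctrl PBS mouse, against 11.03, 15.6 and 20.4 in TDP-PBS, 11.03, 13.7 and 16.2 in TDP10 + 12 and 9.60, 15.1 and 19.2 in TDP15. No TDP-PBS or TDP10 + 12 mouse overlapped with ctrl PBS, and 11 of 12 TDP15 mice lay above it. The log2 fold change was 0.96 ± 0.10 in TDP-PBS (SE, adjusted p = 1.5e-11), 0.78 ± 0.10 in TDP10 + 12 (adjusted p = 6.04e-09) and 0.91 ± 0.09 in TDP15 (adjusted p = 1.35e-11), all by edgeR.

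Pcdhga4 measured 6.94, 10.1 and 12.9 CPM in the lowest, median and highest ctrl PBS mouse and 12.6, 17.4 and 18.5 in TDP-PBS. In TDP10 + 12 it measured 14.1, 16.7 and 18.6 CPM, above every ctrl PBS mouse, and in TDP15 11.9, 16.6 and 21.3 CPM, with 11 of 12 mice above. Its log2 fold change was 0.70 ± 0.09 in TDP-PBS (SE, edgeR adjusted p = 1.76e-09). Pcdhga1, the outermost gene, was lower in level, with 1.62 to 5.17 CPM in ctrl PBS and 3.56 to 8.31 in TDP-PBS, and its log2 fold changes were 0.81 ± 0.15, 0.75 ± 0.15 and 0.80 ± 0.15 in TDP-PBS, TDP10 + 12 and TDP15 (SE). Its ranges overlapped with ctrl PBS in each group.

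Complete separation from ctrl PBS was seen for few members. Above every ctrl PBS mouse lay all mice of TDP-PBS for Pcdhga2 (1 of 64 members, 2.31% of all genes), of TDP10 + 12 for Pcdhga2, Pcdhga4 and Pcdhgb2 (3 of 64, 2.23% of all genes) and of TDP15 for Pcdhga3 (1 of 64, 2.45% of all genes). For 0 of 64 members did all mice of a group lie below every ctrl PBS mouse, which held for 2.58% of all genes in TDP-PBS, 2.59% in TDP10 + 12 and 3.08% in TDP15. Over all 32 rNLS8 mice together 0 of 64 members were fully separated, beside 1.16% of all genes above and 1.64% below.

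Along the cluster, the log2 fold changes of the 22 Pcdhg genes fell with gene order, with a Spearman correlation of -0.55 in TDP-PBS, -0.57 in TDP10 + 12 and -0.56 in TDP15. A fall was also seen in the 10 Pcdha genes, at -0.62, -0.41 and -0.59 in the same order. The 21 Pcdhb genes gave 0.34, 0.16 and 0.44. These correlations describe neighbouring genes read against the same control mice, with constant exons shared within Pcdha and within Pcdhg, so they carry no test. Some late Pcdhg genes rose as much as early ones: in TDP-PBS Pcdhga11 stood at 0.53 and Pcdhgc4 at 0.51, beside Pcdhgb1 at 0.40 and Pcdhgb2 at 0.50. The 6 genes at the 5′ end, a number chosen after the values had been seen, were Pcdhga1, Pcdhga2, Pcdhga3, Pcdhgb1, Pcdhga4 and Pcdhgb2, and all 6 were higher in all 3 groups. They held 12.6% to 17.3% of the Pcdhg counts in ctrl PBS mice (median 14.5%), while the TDP-PBS mice held 16.8% to 20.0%, the TDP10 + 12 mice 16.7% to 19.4% and the TDP15 mice 17.6% to 21.1%. The highest control share was exceeded in all 12 mice of TDP15, 9 of 10 of TDP10 + 12 and 8 of 10 of TDP-PBS.

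In TDP-PBS 8 of the 22 Pcdhg genes did not pass the test. Pcdhga10, Pcdhgb5 and Pcdhgb8 had the lowest log2 fold changes of the cluster in TDP-PBS, at -0.16 ± 0.11, 0.04 ± 0.11 and -0.01 ± 0.24 (SE). Pcdhgb8, annotated as a transcribed pseudogene, was near the detection limit with 0.151 to 1.08 CPM in ctrl PBS, whereas Pcdhga10 was measured at 3.31 to 8.61 CPM there and at 3.61 to 6.13 CPM in TDP-PBS. Their groups overlapped almost completely. Pcdhga5 had a log2 fold change of 0.36 ± 0.20 in TDP-PBS and varied more between mice of a group than 96.4% of the genes of similar level.

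**Figure D3:**
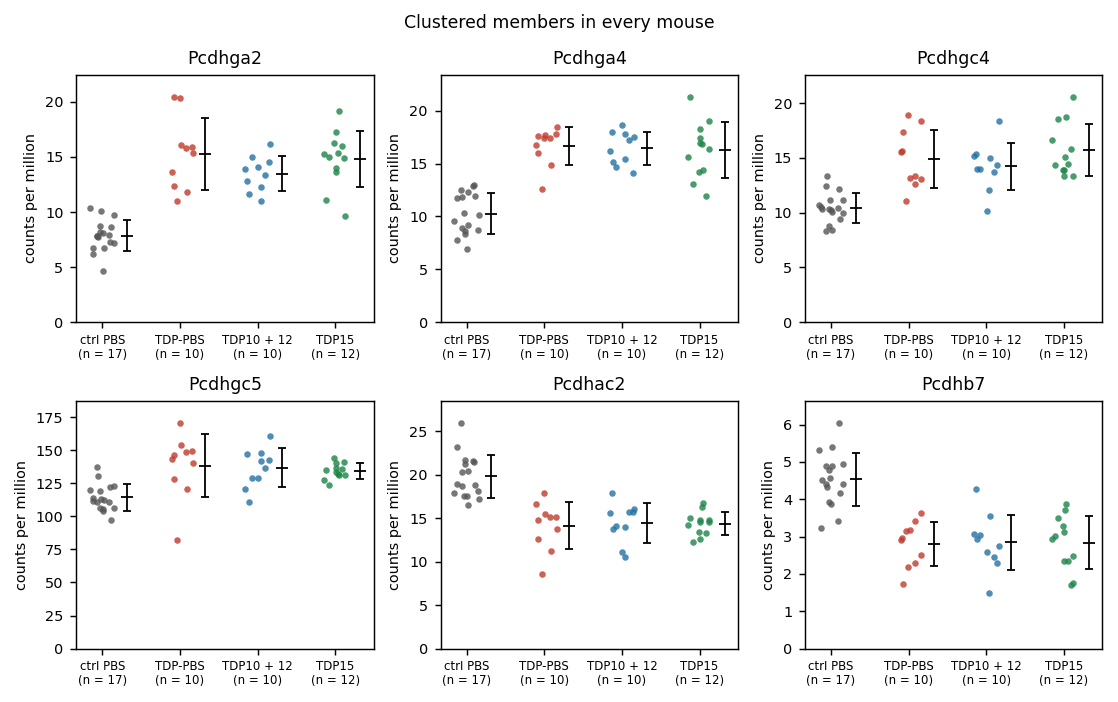
CPM of 6 clustered members in each mouse by group, with mean ± SD at the right of each group. Pcdhga2 and Pcdhga4 are separated from ctrl PBS in nearly every rNLS8 mouse, Pcdhgc4 and Pcdhgc5 are higher with overlap, and Pcdhac2 and Pcdhb7 are lower with some overlap.

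The C-type genes followed the direction of their own cluster. Pcdhgc5, which can bind GABA type A receptors, had the highest count of all clustered members, with 97.2, 113 and 138 CPM in the lowest, median and highest ctrl PBS mouse and 82.3, 145 and 170 in TDP-PBS. The low value came from mouse 26, and 7 of 10 mice of this group exceeded the highest control. Its log2 fold change was 0.27 ± 0.06 in TDP-PBS, 0.26 ± 0.06 in TDP10 + 12 and 0.23 ± 0.06 in TDP15 (SE). Pcdhgc4, which is needed for the survival of cortical interneurons, rose from 10.4 ± 1.36 CPM in ctrl PBS (SD, n = 17) to 14.9 ± 2.67 in TDP-PBS (SD, n = 10), 14.2 ± 2.17 in TDP10 + 12 (SD, n = 10) and 15.7 ± 2.40 in TDP15 (SD, n = 12), with 10 of 12 TDP15 mice above every control. Pcdhgc3, a regulator of dendrite branching, changed least, with log2 fold changes of 0.16 ± 0.05, 0.11 ± 0.05 and 0.15 ± 0.05 (SE), and it passed the test in TDP-PBS and TDP15 but not in TDP10 + 12 (edgeR adjusted p = 0.0613).

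In the Pcdha cluster (chromosome 18, 36930285 to 37188897, GRCm38) Pcdhac2, required for the even spread of serotonergic axons, held most of the counts. It measured 16.5, 19.0 and 25.9 CPM in the lowest, median and highest ctrl PBS mouse, against 8.57, 14.9 and 17.9 in TDP-PBS, 10.5, 14.8 and 17.8 in TDP10 + 12 and 12.2, 14.5 and 16.7 in TDP15. In these groups 8 of 10, 9 of 10 and 11 of 12 mice were under the lowest control. The log2 fold change was -0.49 ± 0.08 in TDP-PBS (SE, edgeR adjusted p = 2.82e-06). Pcdhac1 measured 1.51 ± 0.391 CPM in ctrl PBS (SD, n = 17) and 1.04 ± 0.260 in TDP-PBS (SD, n = 10), a log2 fold change of -0.53 ± 0.17 (SE), with overlapping groups.

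The alternately used Pcdha genes were scarce, and their tests had little precision. Pcdha12 and Pcdha5 fell by 0.57 ± 0.14 and 0.58 ± 0.15 on the log2 scale in TDP-PBS (SE), from 2.93 ± 0.504 and 2.20 ± 0.499 CPM in ctrl PBS (SD, n = 17). Pcdha3 and Pcdha11 passed the test in TDP10 + 12 and TDP15 but not in TDP-PBS, where they stood at -0.24 ± 0.16 and -0.42 ± 0.20 (SE). Pcdha1 and Pcdha2, at means of 0.462 and 0.751 CPM in ctrl PBS, stood at -0.06 ± 0.30 and -0.32 ± 0.21 in TDP-PBS (SE). The log2 fold change was negative for all 10 Pcdha members in each of the 3 groups, and 6 of 10 were lower in both immunized groups.

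In the Pcdhb cluster (chromosome 18, 37264998 to 37521419, GRCm38) the change was uneven between neighbouring genes. Pcdhb7 fell most, from 3.22, 4.53 and 6.03 CPM in the lowest, median and highest ctrl PBS mouse to 1.72, 2.94 and 3.63 in TDP-PBS, 1.48, 2.84 and 4.27 in TDP10 + 12 and 1.70, 2.99 and 3.87 in TDP15. Its log2 fold changes were -0.70 ± 0.13, -0.67 ± 0.13 and -0.67 ± 0.12 (SE), and in each rNLS8 group 8 mice were under the lowest control. Pcdhb9, located 2 genes further along, went the other way with 8.03 ± 1.17 CPM in ctrl PBS (SD, n = 17) and 9.17 ± 1.19 in TDP-PBS (SD, n = 10), a log2 fold change of 0.19 ± 0.08 (SE, edgeR adjusted p = 0.0346) with overlapping groups. It had the highest level per kilobase of exon of the Pcdhb members, at 2.63 ± 0.382 CPM per kb in ctrl PBS (SD, n = 17), against 0.317 ± 0.0815 for Pcdhb21 at the lowest. The GENCODE M21 exon length of Pcdhb21, 4.705 kb, exceeds its RefSeq span (37513652 to 37516363), so its place depends on the annotation.

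Pcdhb5 and Pcdhb3 were lower in all 3 groups, at -0.43 ± 0.12 and -0.35 ± 0.10 in TDP-PBS (SE), and Pcdhb12, Pcdhb14 and Pcdhb22 were lower in TDP-PBS at -0.28 to -0.34. Pcdhb17 and Pcdhb18 stood at 0.04 ± 0.07 and 0.13 ± 0.10 in TDP-PBS (SE) and passed the test in none of the 3 groups. Pcdhb6 was lower in TDP15 alone, with 2.01 ± 0.444 CPM in ctrl PBS (SD, n = 17), 1.91 ± 0.482 in TDP-PBS (SD, n = 10), 1.73 ± 0.545 in TDP10 + 12 (SD, n = 10) and 1.43 ± 0.432 in TDP15 (SD, n = 12). Its difference between TDP15 and TDP-PBS did not pass the test (log2 fold change -0.42 ± 0.17, edgeR adjusted p = 0.9996).

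How reads were divided among near-identical genes limits all clustered values. Of the exon bases that GENCODE M21 gives to a Pcdhg gene, 27.8% to 66.8% also belonged to another clustered gene, and of those of a Pcdha member 28.5% to 54.9%, while the single exons of 19 of the 21 Pcdhb members shared 0 bases. Pcdha10 had no entry under that name. The sources used here do not say how a read in a constant exon was counted, so the levels of Pcdha and Pcdhg genes are uncertain, and shared reads can move a gene with its cluster.

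Nonclustered protocadherins differed widely in level. Per kilobase of exon, Pcdh1 came first in ctrl PBS with 29.7 ± 3.80 CPM per kb (SD, n = 17), followed by Pcdh9 with 19.2 ± 1.44. Pcdh10 and Pcdh7 came next with 10.9 ± 1.01 and 9.65 ± 1.01, within each other's spread, then Pcdh8 with 7.92 ± 1.71 and Pcdh17 with 4.59 ± 0.573. Pcdh19 with 2.74 ± 0.480 and Pcdh20 with 1.89 ± 0.467 preceded Pcdh11x and Pcdh18, which did not differ beyond their spread at 1.08 ± 0.210 and 1.06 ± 0.195. Pcdh15 was at 0.716 ± 0.115 CPM per kb, and Pcdh12, an endothelial protocadherin, came last at 0.0786 ± 0.0481.

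**Figure D4:**
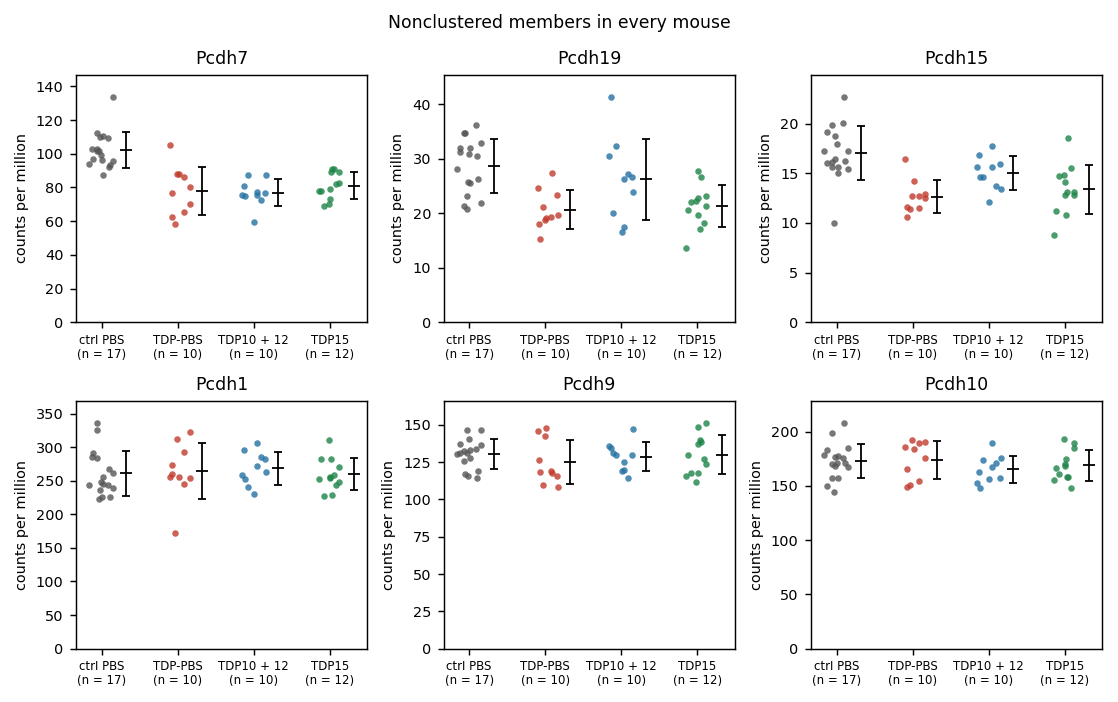
CPM of 6 nonclustered members in each mouse by group, with mean ± SD at the right of each group. Pcdh7 is lower in all 3 rNLS8 groups, Pcdh19 and Pcdh15 are lower in TDP-PBS and TDP15, and Pcdh1, Pcdh9 and Pcdh10 overlap between all groups.

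Of the delta1 genes, Pcdh7 was lower in every rNLS8 group. It measured 87.1, 102 and 134 CPM in the lowest, median and highest ctrl PBS mouse, against 58.5, 78.5 and 105 in TDP-PBS, 59.5, 76.2 and 87.6 in TDP10 + 12 and 69.1, 80.5 and 91.2 in TDP15. In TDP-PBS 7 of 10 mice, and in the immunized groups 8 of 10 and 8 of 12, were under the lowest control. The log2 fold changes were -0.39 ± 0.07, -0.41 ± 0.07 and -0.34 ± 0.06 (SE). Pcdh1, Pcdh9 and Pcdh11x stood at 0.02 ± 0.07, -0.06 ± 0.05 and -0.12 ± 0.12 in TDP-PBS (SE) and passed the test in none of the 3 groups.

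Of the delta2 genes, Pcdh19, whose loss on the X chromosome causes an epilepsy of girls in humans, measured 20.8, 30.5 and 36.2 CPM in the lowest, median and highest ctrl PBS mouse. It measured 15.4, 19.5 and 27.4 CPM in TDP-PBS, 16.5, 26.5 and 41.4 in TDP10 + 12 and 13.7, 21.7 and 27.7 in TDP15. Its log2 fold change was -0.47 ± 0.11 in TDP-PBS (SE, edgeR adjusted p = 0.000606), -0.43 ± 0.11 in TDP15 (edgeR adjusted p = 0.00074) and -0.13 ± 0.11 in TDP10 + 12 (edgeR adjusted p = 0.376). The TDP10 + 12 mice thus ranged from below to above ctrl PBS. Pcdh18 was lower in TDP-PBS at -0.27 ± 0.11 (SE, edgeR adjusted p = 0.0395), a call that several alternatives lost, and Pcdh17 was lower in TDP15 at -0.19 ± 0.07 (SE, edgeR adjusted p = 0.0164). Pcdh10 and Pcdh8, the latter induced by neuronal activity, stood at 0.01 ± 0.05 and -0.01 ± 0.11 in TDP-PBS (SE).

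Pcdh15, known as a component of the tip links of hair cells, measured 10.0, 16.4 and 22.7 CPM in the lowest, median and highest ctrl PBS mouse, 10.6, 12.6 and 16.4 in TDP-PBS, 12.1, 15.1 and 17.8 in TDP10 + 12 and 8.83, 13.1 and 18.5 in TDP15. It was lower in TDP-PBS (log2 fold change -0.43 ± 0.09, edgeR adjusted p = 9.15e-05) and TDP15 (-0.35 ± 0.08, edgeR adjusted p = 0.000533) but stood at -0.18 ± 0.09 in TDP10 + 12 (edgeR adjusted p = 0.0956). Its difference between TDP10 + 12 and TDP-PBS did not pass the test (log2 fold change 0.25, edgeR adjusted p = 0.926). Pcdh20 stood at -0.18 ± 0.13 in TDP-PBS. Pcdh12 was too scarce for the test, with 0.476 ± 0.291 CPM in ctrl PBS (SD, n = 17) and 0.234 ± 0.172 in TDP-PBS (SD, n = 10), close to the detection limit.

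RefSeq windows of GRCm38.p6, from 250 bases before to 50 after a listed transcript start, were found for 9 of the nonclustered genes. In 6 of them (Pcdh8, Pcdh10, Pcdh17, Pcdh18, Pcdh19 and Pcdh20) that start lay within 200 bases of the gene's outer 5′ end. In Pcdh7, Pcdh9 and Pcdh15 it lay 1.94, 2.16 and 726 kb inside the gene, so these windows belong to inner starts and are not shown. The sequences are given for Pcdh19 (chrX:133688944-133689243, minus strand), which was lower in TDP-PBS and TDP15, and for Pcdh10 (chr3:45378148-45378447, plus strand), whose level did not pass the test in any group. Capitals mark the GC box, GGGCGG or its reverse complement CCGCCC, searched on both strands.
Pcdh19: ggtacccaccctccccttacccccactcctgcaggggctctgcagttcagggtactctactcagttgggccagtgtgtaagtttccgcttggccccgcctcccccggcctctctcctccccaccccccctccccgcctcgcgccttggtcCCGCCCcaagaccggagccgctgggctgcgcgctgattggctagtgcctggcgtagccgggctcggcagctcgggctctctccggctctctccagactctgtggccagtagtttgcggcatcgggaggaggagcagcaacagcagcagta
Pcdh10: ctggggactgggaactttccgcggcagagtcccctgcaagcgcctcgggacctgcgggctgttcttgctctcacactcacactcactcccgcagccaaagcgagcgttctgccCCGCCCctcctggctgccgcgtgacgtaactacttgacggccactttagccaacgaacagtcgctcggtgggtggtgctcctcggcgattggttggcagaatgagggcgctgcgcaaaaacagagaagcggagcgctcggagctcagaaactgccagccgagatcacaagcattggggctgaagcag
The GC box was found in 4 of the 9 windows (Pcdh10, Pcdh17, Pcdh18 and Pcdh19), a share of 44.4% beside 35.7% of all 32851 windows of this length. All 4 were among the 6 windows at the outer 5′ end of a gene. The windows of Pcdh19 and Pcdh10 held 18 and 24 CpG dinucleotides, where the median of all windows was 7. Of all windows, 70.3% and 80.0% held fewer. The 9 windows of members ranged from 4 in Pcdh20 to 26 in Pcdh17.

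TDP-43 binds UG-rich RNA, so repeats of TG were counted in the annotated GENCODE M21 transcripts. Such transcripts hold exons only, so introns were not searched. Runs of 6 or more TG units were found in 4 of 64 members with a transcript (6.25%), beside 2112 of 16757 tested genes (12.6%). They were Pcdh15 with a longest run of 38 bases, Pcdh17 with 40, Pcdhb14 with 36 and Pcdhga12 with 52. Pcdh15 and Pcdhb14 were lower in TDP-PBS, while Pcdh17 and Pcdhga12 stood at -0.12 ± 0.07 and 0.12 ± 0.07 (SE).

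The next comparisons asked whether immunization altered these levels within rNLS8 mice. Of 64 members 0 passed the test in TDP10 + 12 against TDP-PBS, 0 in TDP15 against TDP-PBS and 0 in TDP10 + 12 against TDP15 (edgeR), as did 0% of all genes in each comparison. Unadjusted p-values under 0.05 were found for 2, 2 and 3 members, beside 953, 552 and 1244 of all genes, and DESeq2 and limma-voom also called 0 members. Log2 fold changes of the members ranged from -0.31 to 0.42, from -0.42 to 0.45 and from -0.31 to 0.35. The smallest p-values belonged to Pcdh19, which was 0.34 ± 0.13 higher on the log2 scale in TDP10 + 12 than in TDP-PBS (SE, edgeR adjusted p = 0.904), to Pcdhb6 in TDP15 against TDP-PBS, and to Pcdh8, which was 0.35 ± 0.12 higher in TDP10 + 12 than in TDP15 (SE, edgeR adjusted p = 0.537). Pcdh8 ranged from 31.9 to 52.7 CPM in TDP10 + 12 and from 25.3 to 42.6 CPM in TDP15.

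Sex was compared over all 49 mice with group in the model, since Pcdh19 and Pcdh11x are X-linked and the groups differed in their sex ratio. Of 64 members 0 differed between females and males (edgeR), beside 0.0933% of all genes. Unadjusted p-values under 0.05 were found for 11 members, beside 724 of 18220 genes, and DESeq2 also called 0 members. The smallest p-value was that of Pcdhb4, 0.46 ± 0.13 higher in females on the log2 scale (SE, edgeR adjusted p = 0.569). In the 27 PBS-treated mice 0 of 63 members showed an interaction of genotype and sex (edgeR), as did 0% of 17363 genes, with 2 members at an unadjusted p-value under 0.05. The smallest p-value was that of Pcdha11 (interaction 0.94 ± 0.35, edgeR adjusted p = 0.741).

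Genes that act with protocadherins were read from lists. Of 16 intracellular partners 8 were lower and 2 higher in TDP-PBS, beside 21.6% and 21.9% of all genes, with a median of -0.09. The lower ones included 5 subunits of the WAVE complex, which links the clustered protocadherins to actin branching: Wasf1 fell by 0.63 ± 0.05, Nckap1 by 0.53 ± 0.04, Abi2 by 0.44 ± 0.04, Cyfip2 by 0.34 ± 0.04 and Abi1 by 0.24 ± 0.03 on the log2 scale (SE). The complex's small subunit Brk1 stood at -0.13 ± 0.04 and also passed the test, while its alternative subunit Cyfip1 was 0.10 ± 0.04 higher. The kinases Ptk2 and Ptk2b, which are inhibited by protocadherin cytoplasmic domains, fell by 0.41 ± 0.05 and 0.28 ± 0.05, and the kinase Fyn was 0.14 ± 0.04 higher.

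Of 11 regulators of promoter choice, 3 were higher and 1 lower in TDP-PBS, beside 21.9% and 21.6% of all genes. The cohesin subunits Rad21 and Smc3 and the cohesin release factor Wapl were 0.22 ± 0.03, 0.19 ± 0.05 and 0.26 ± 0.06 higher on the log2 scale, and the cohesin subunit Smc1a fell by 0.38 ± 0.04 (SE). Ctcf stood at -0.05 ± 0.04 and Smchd1 at 0.03 ± 0.06 and did not pass the test. Of 8 genes tested that flank or lie between the clusters, Rell2, Fchsd1 and Hars were higher, at 0.36 ± 0.07, 0.31 ± 0.08 and 0.11 ± 0.04, and Zmat2 and Hdac3 were lower, at -0.59 ± 0.05 and -0.14 ± 0.04 (SE). Of 19 classical cadherins tested 7 were lower and 2 higher, from Cdh24 at -0.52 to Cdh3 at 0.67, the latter without passing the test, and of 9 large cadherins 2 were lower and 0 higher. The shares of all genes were 21.9% higher and 21.6% lower for these lists too.

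Within groups, correlations between members of a cluster were mostly low. Over the 49 mice, with each group's mean removed, the median Pearson correlation between pairs of log2 CPM values was 0.11 in Pcdha (45 pairs), 0.07 in Pcdhb (210 pairs), 0.19 in Pcdhg (231 pairs) and 0.20 among the nonclustered genes (55 pairs). The highest single value was 0.76 for Pcdh1 and Pcdhgc5, followed by 0.68 for Pcdh15 and Pcdhb16, 0.67 for Pcdh7 and Pcdh11x and 0.65 for Pcdh7 and Pcdh9. The lowest was -0.46 for Pcdhga5 and Pcdhga9. These values describe pairs measured in the same libraries and carry no test. Counting error lowers correlations between scarce members, such as Pcdha1 with 3 to 17 counts per ctrl PBS mouse, and its part was not tested.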

How the data were processed

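Neocortical RNA of 49 mice, 1 library each, was sequenced as 100 bp paired-end reads by the authors, who aligned them to GRCm38.p6 and deposited raw read counts per gene and mouse as whole numbers. The submitters' processing notes name HISAT, HISAT2, Bowtie, Bowtie2 and RSEM, while their roles, the annotation, the strand setting and the treatment of reads that fit several genes are not given in the sources used here. Deposited columns of other samples numbered 0. The labels gave the group, sex and number of each mouse.

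All 45252 rows were filtered with filterByExpr (a minimum of 10 counts and of 15 in total), scaled with TMM factors and then fitted with edgeR's glmQLFit and glmQLFTest over all 49 mice without covariates (edgeR 4.0.16, R 4.3.3), two-sided, with Benjamini-Hochberg adjustment over 18220 genes and a threshold of 0.05. CPM values are TMM-scaled. Sex and its interaction with genotype had models of their own. Gene spans come from RefSeq GRCm38.p6 and exon lengths from GENCODE M21. Total counts were 17775738 to 21033608, floors cover counting error only, and within groups no pair of libraries had a chi-squared per degree of freedom under 7.77. The fit was tested on simulated counts. Correlations used log2(CPM + 0.1).

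Alternatives were DESeq2's size factors, no filter, a minimum of 10 counts in all mice, a term for sex, only the groups compared, DESeq2 1.42.0, limma-voom with quality weights (limma 3.58.1) and an adjusted p-value under 0.01. Fits without the mice with olfactory bulb markers, without those with choroid plexus markers and without TDP-PBS mouse 26 were added after the data had been seen. Named are all nonclustered and C-type members, in each cluster the 3 highest and 3 lowest log2 fold changes in TDP-PBS and the 2 highest levels, and the members with the smallest p-values in the other comparisons. Other members named for their separation, their place in the cluster, their repeats or their calls in 1 group were chosen after their values had been seen. The members and lists were chosen with earlier results of these data known.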

Additional observations from a re-analysis of the deposited data

Results flagged for a closer look

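Among the 74 sets of 10 mice, 1 for each named member in TDP-PBS and in TDP10 + 12, 4 held a mouse that stood apart from the rest by Dixon's criterion for 10 values, where chance gives about 1 in 20. In TDP-PBS, mouse 26 had the lowest Pcdh1 level (173 CPM, next 245) and the lowest Pcdhgc3 level (44.8 CPM, next 57.4). In TDP10 + 12, mouse 200 had the lowest Pcdhgc3 level (46.8 CPM, next 55.8), and it was the lowest of its group in 7 of 12 nonclustered genes. The highest Pcdh8 level of TDP-PBS, 59.4 CPM, belonged to mouse 91, with 42.0 CPM next. Mice 26 and 200 had summed choroid plexus markers of 1271 and 1071 CPM and mouse 91 had 27.4 CPM, and the part of these in the values was not tested.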

How the results depend on the processing

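Over all alternatives, members higher than in ctrl PBS numbered 13 to 17 (TDP-PBS), 14 to 17 (TDP10 + 12) or 12 to 16 (TDP15), and members lower numbered 12 to 15, 9 to 12 and 11 to 18. The count that moved by more than 1.5 times was that of members lower in TDP15, 17 in the reported fit and 11 at an adjusted p-value under 0.01, where the threshold itself is stricter. Between rNLS8 groups, between the sexes and for the interaction, 0 members were called under every alternative run. Without the 4 mice with choroid plexus markers 16 members were higher and 13 lower in TDP-PBS, and without the 5 mice with olfactory bulb markers 15 and 14. Over all genes, these fits called 7873 of 18367 and 7752 of 18352 in TDP-PBS, beside 7928 of 18220 in the reported fit. Pcdh18 lost its call without a filter, with sex as a covariate, with limma-voom and in the 3 fits with fewer mice (adjusted p = 0.0603 to 0.086), and Pcdhb9 lost its call without a filter (edgeR adjusted p = 0.0653). Pcdha11 gained a call with limma-voom at -0.56. Pcdh8, close to 0, changed sign to 0.011 with sex as a covariate and to 0.0023 with only the 2 groups compared. The cause of these changes was not tested. No paired analysis was run, since every mouse is a separate animal and the labels give no litter. Depth limits Pcdha1, Pcdha2, Pcdhgb8 and Pcdh12, which lie near the level of 3 counts in some mice.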
